A study of Mus musculus with 16 samples.

Results

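Break ends were counted over the bodies of 10 genes that act in end joining and in signalling from DNA double-strand breaks, chosen by name, out of 32052 protein-coding and long noncoding genes annotated by GENCODE M21 on mm10. The members were Xrcc5, Xrcc6, Prkdc, Dclre1c, Xrcc4, Lig4, Nhej1, Atm, Trp53bp1 and Parp1. Each gene body was counted whole and as exons and introns apart, in every library. BLISS ligates an adapter to free DNA ends inside fixed cells. Each count is therefore read here as a break end lying in the gene. It is not taken as a measure of how much of its transcript or protein the cells made.

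The cells were AB22, a mouse malignant mesothelioma line (mesothelioma is a cancer of serous membranes), kept under 5% oxygen. One line carried a pTRIPZ hairpin against HMGB1 (shHMGB1), a chromatin protein that bends DNA, and the other a pTRIPZ control hairpin (shCTRL). Both lines were selected with puromycin, given doxycycline for 7 to 10 days to switch the hairpin on, held in G1, and exposed to a Caesium137 source. The 8 groups were shHMGB1 at 0, 3, 5 and 10 Gy and shCTRL at 0, 3, 5 and 10 Gy, with 2 libraries each. The labels do not say whether a line was a pool or a clone. They call the replicates biological and say no more, and p-values here reflect the spread from library to library, which may be technical.

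Classical non-homologous end joining starts when the Ku heterodimer slides onto a broken end and recruits the DNA-dependent protein kinase; the ends are trimmed where needed, held together and sealed by a dedicated ligase complex. It works throughout the cell cycle and is the main route of double-strand break repair in G1. In parallel, the kinase ATM marks the chromatin around the break, where 53BP1 gathers and shields the ends from resection, and PARP1 binds breaks and builds poly(ADP-ribose) on nearby proteins.

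The 16 libraries held between 132390 and 1020770 break ends, and the smallest was shCTRL 3 Gy replicate 2. On the main chromosomes, shHMGB1 libraries held 691644 to 1010888 ends and shCTRL libraries 131430 to 927413, so depth differed between the lines. Levels are given as CPM, with the ends on the main chromosomes of each library as the total, and densities as CPM per kb of gene. Break ends are not taken here as a measure of transcript, so they check neither the loss of HMGB1 nor the identity of the cells. A count of 3 ends amounts to 22.8 CPM in the smallest library, and intervals and floors cover counting error only. Of the 10 genes, 9 passed the filter on low counts; Lig4, with 34 ends in all, did not.

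The promoters of Xrcc5, Xrcc6 and Trp53bp1 are shown because they held the most break ends among the promoter windows of 300 bases of 9 members (all but Prkdc), and the end of 1 Trp53bp1 exon because break ends returned to its last base in 7 libraries. The sequences are in mm10 (GRCm38.p6), the promoters from RefSeq and the exon from GENCODE M21, and capitals mark each base where the deposited position of at least 1 end fell. The sources used here do not state whether that position is the break itself or the lowest aligned base for reads of both strands, and the files keep no strand, so a base position is exact only as deposited.
Xrcc5, chr1:72307171-72307470, plus strand: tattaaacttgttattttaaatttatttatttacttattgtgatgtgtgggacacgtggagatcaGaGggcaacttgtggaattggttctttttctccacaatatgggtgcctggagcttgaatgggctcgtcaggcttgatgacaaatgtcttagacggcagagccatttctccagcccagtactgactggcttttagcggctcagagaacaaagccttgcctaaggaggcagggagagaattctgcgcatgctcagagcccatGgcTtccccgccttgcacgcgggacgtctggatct
Xrcc6, chr15:82016119-82016418, plus strand: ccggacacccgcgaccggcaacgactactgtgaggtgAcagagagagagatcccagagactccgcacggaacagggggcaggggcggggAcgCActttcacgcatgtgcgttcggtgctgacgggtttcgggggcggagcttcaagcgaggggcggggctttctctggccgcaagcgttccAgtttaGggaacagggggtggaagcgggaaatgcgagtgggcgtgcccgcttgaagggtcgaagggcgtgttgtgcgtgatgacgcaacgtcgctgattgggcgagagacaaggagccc
Trp53bp1, chr2:121271358-121271657, minus strand: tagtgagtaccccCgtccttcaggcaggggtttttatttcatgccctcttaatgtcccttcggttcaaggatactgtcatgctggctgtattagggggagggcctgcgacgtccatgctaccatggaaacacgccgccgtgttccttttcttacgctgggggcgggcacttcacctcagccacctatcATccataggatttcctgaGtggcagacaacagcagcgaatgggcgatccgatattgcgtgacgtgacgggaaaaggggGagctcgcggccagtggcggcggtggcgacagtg
Trp53bp1 exon 20 of 28, chr2:121208355-121208385, minus strand: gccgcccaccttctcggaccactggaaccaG
Over all 16 libraries these promoters held 6 ends in Xrcc5, 6 in Xrcc6 and 5 in Trp53bp1. Those of Xrcc6 lay at 6 different bases and all came from shHMGB1 libraries, 4 of them, with 0 from shCTRL. In Xrcc5, 3 ends came from shHMGB1 and 3 from shCTRL libraries, and in Trp53bp1 4 and 1. A window of the same length held a median of 1 end over 20148 protein-coding windows, 11.98% of them held 5 or more, and 8.72% held 6 or more. RefSeq places the start of Xrcc6 inside its GENCODE body. The windows of the other 6 members with one held 0 to 3 ends. The GC box letters GGGCGG, searched on both strands, occurred 3 times in the Xrcc6 window, 0 times in that of Xrcc5 and once in that of Trp53bp1, against 35.7% of all promoter windows with a match. No test was made between the lines on single promoters at such counts.

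Break ends per kb differed several-fold among the members. The densest was Xrcc6, at 0.845 ± 0.279 CPM per kb (SD, n = 16 libraries), followed by Xrcc4 at 0.629 ± 0.131, Trp53bp1 at 0.593 ± 0.176, Xrcc5 at 0.551 ± 0.159, Prkdc at 0.537 ± 0.121 and Parp1 at 0.536 ± 0.181. Most of the Xrcc6 body is shared with the gene Desi1, and 16.7% of its ends lay outside other genes. Its rank therefore does not belong to Xrcc6 alone. Lower densities were found in Lig4 at 0.438 ± 0.494, Dclre1c at 0.353 ± 0.244, Atm at 0.353 ± 0.140 and Nhej1 at 0.163 ± 0.0457. Neighbours in this order lay within their spread from Xrcc6 down to Atm, and Nhej1 lay below Atm by more than the SD of either gene. Against the 10638 protein-coding genes that passed the filter, whose median was 0.405 CPM per kb, pooled densities stood between the 3.47th percentile for Nhej1 and the 81.4th for Xrcc6.

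**Figure D1:**
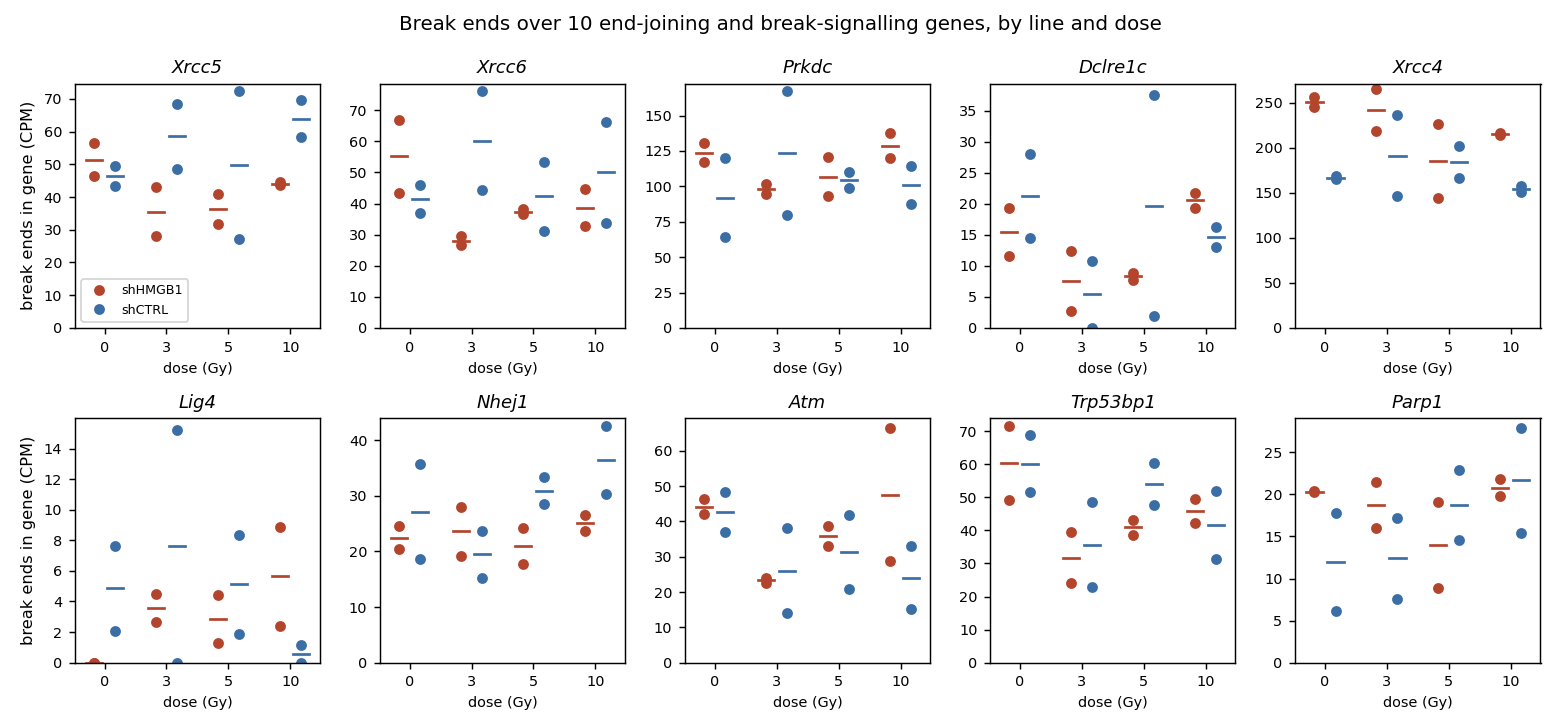
Break ends in each gene (CPM, vertical axis) by dose (Gy, horizontal axis), one point per library and a bar at the mean of 2, with shHMGB1 left of shCTRL at each dose. Xrcc4 stands between 144 and 265 CPM in every library, and its shHMGB1 libraries lie above those of shCTRL at 0 and 10 Gy.

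The Ku subunits bind the broken end as a ring. Xrcc5, which encodes the larger subunit Ku80 and spans 87.5 kb of chromosome 1 (72307421 to 72394952), held 537 ends, 40 of them in exons. Its level ran from 28.0 over a median of 43.3 to 56.4 CPM in shHMGB1 libraries, and from 27.1 over 53.9 to 72.4 CPM in shCTRL libraries. The lines overlapped over most of this range. Xrcc6, which encodes Ku70, spans 52.3 kb of chromosome 15 (81987835 to 82040085) and shares most of that length with Desi1 on the opposite strand: 20.9% of the length and 16.7% of its 485 ends lay outside other genes, so its counts cannot be separated from those of Desi1. It ran from 26.6 over 37.3 to 66.9 CPM in shHMGB1 and from 31.2 over 45.1 to 76.1 CPM in shCTRL libraries.

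Prkdc encodes the catalytic subunit of the DNA-dependent protein kinase, which Ku recruits to the end. It spans 204 kb of chromosome 16 (15637866 to 15842235) and held 1225 ends at 1030 positions. Levels were 92.9 to 138 CPM in shHMGB1 libraries, with a median of 118, and 63.9 to 167 CPM in shCTRL libraries, with a median of 105. The 1024 bases of the gene within 1 kb of an annotated start held 33 ends, or 2.83 CPM per kb, against a pooled 0.527 over the whole gene. This was the highest such density among the members, and the others ran from 0.173 in Xrcc4 to 1.40 in Xrcc5. The stretches compared were unlike, from 1001 bases in Xrcc5 to 17405 in Trp53bp1, as every annotated transcript start adds bases. Dclre1c encodes Artemis, the nuclease that this kinase activates to trim ends and open hairpins. It held 162 ends in 40.0 kb of chromosome 2 (3424131 to 3464130), part of which it shares with Suv39h2, and its levels were 2.66 to 21.8 CPM in shHMGB1 and 0 to 37.5 CPM in shCTRL libraries. The shCTRL library at 0 was the smallest one, where 0 ends allow up to 22.8 CPM.

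Lig4 encodes the ligase that seals the ends, and Xrcc4 its obligate partner, which stabilises it. Nhej1 encodes XLF, which forms filaments with XRCC4 that bridge the ends. Lig4 spans 8.64 kb of chromosome 8 (9969049 to 9977686), of which 60.2% is exon, and held 0 to 9 ends per library. Both shHMGB1 libraries at 0 Gy, shCTRL 3 Gy replicate 1 and shCTRL 10 Gy replicate 1 held 0 ends, which allows up to 3.23 to 4.34 CPM. Lig4 was not tested between groups. Nhej1 spans 158 kb of chromosome 1 (74967139 to 75125200) with 0.707% of its length in exons, and held 294 ends, 286 of them intronic. Its levels were 17.7 to 28.0 CPM in shHMGB1 and 15.2 to 42.6 CPM in shCTRL libraries, and its most repeated position held 12 ends, all from 1 library.

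Xrcc4 held 2258 ends, more than any other member, in 316 kb of chromosome 13 (89774027 to 90089608, minus strand). It overlaps Gm4117, Gm24498 and Tmem167, and 64.0% of its length and 88.9% of its ends lay outside other genes. At 0, 3, 5 and 10 Gy it had 256 and 245, 218 and 265, 226 and 144, and 214 and 217 CPM in shHMGB1 replicates 1 and 2. The shCTRL replicates had 165 and 168, 147 and 236, 166 and 202, and 150.3 and 157 CPM at the same doses. Both shHMGB1 libraries were the higher pair at 0 and 10 Gy, and the pairs overlapped at 3 and 5 Gy.

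Most of these ends lay at a single base. Position 90026585, in the intron from 90001085 to 90062008 and 63.0 kb from the start of the gene, held 1436 of the 2258 ends, or 63.6%, and was hit in 16 of 16 libraries. Within 2 bases of it lay 1479 ends. As large a share at 1 position was found in 108 of the 12584 genes tested, 0.858% of them, and the median share was 3.33%; of 6215580 positions with an end anywhere, 373 held as many. Counting each position once per library left 684 ends in Xrcc4 and moved its density to the 19.6th percentile, where the full count stood at the 72.5th.

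At that base, shHMGB1 libraries held 57 to 156 ends (median 127), or 72.5 to 194 CPM, and shCTRL libraries 27 to 79 ends (median 61), or 73.3 to 205 CPM. The means were 146 ± 38.3 CPM in shHMGB1 and 115 ± 44.8 CPM in shCTRL (SD, n = 8 each), and 126 ± 42.5 CPM in irradiated (n = 12) against 143 ± 49.5 CPM in unirradiated libraries (n = 4). The share of the gene's ends at the base was lowest in shCTRL 10 Gy replicate 2, at 46.6% (95% Wilson interval 38.4 to 55.1%), and highest in shCTRL 3 Gy replicate 2, at 87.1% (71.1 to 94.9%). The library with the highest share was also the smallest. Exact permutation tests, two-sided and within doses or within lines, gave a difference of 30.7 CPM between shHMGB1 and shCTRL (p = 0.173, adjusted over 6 tests 0.519) and of -17.3 CPM between irradiated and unirradiated libraries (p = 0.477, adjusted 0.716), neither of which passed.

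Elsewhere in Xrcc4 the libraries were closer together. There, shHMGB1 libraries had 62.2 to 91.9 CPM and shCTRL libraries 30.4 to 83.9 CPM, with means of 77.5 ± 12.3 and 59.1 ± 17.2 CPM (SD, n = 8 each). Both shHMGB1 libraries were higher than both shCTRL libraries at 3 and 5 Gy, and the pairs overlapped at 0 and 10 Gy. The difference of 18.4 CPM had an exact permutation p of 0.0432, which adjusted over the 6 tests to 0.259 and did not pass. Irradiated libraries had 69.3 ± 19.9 CPM (n = 12) and unirradiated ones 65.4 ± 4.37 CPM (n = 4), an exact permutation p of 0.675, adjusted 0.793.

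**Figure D2:**
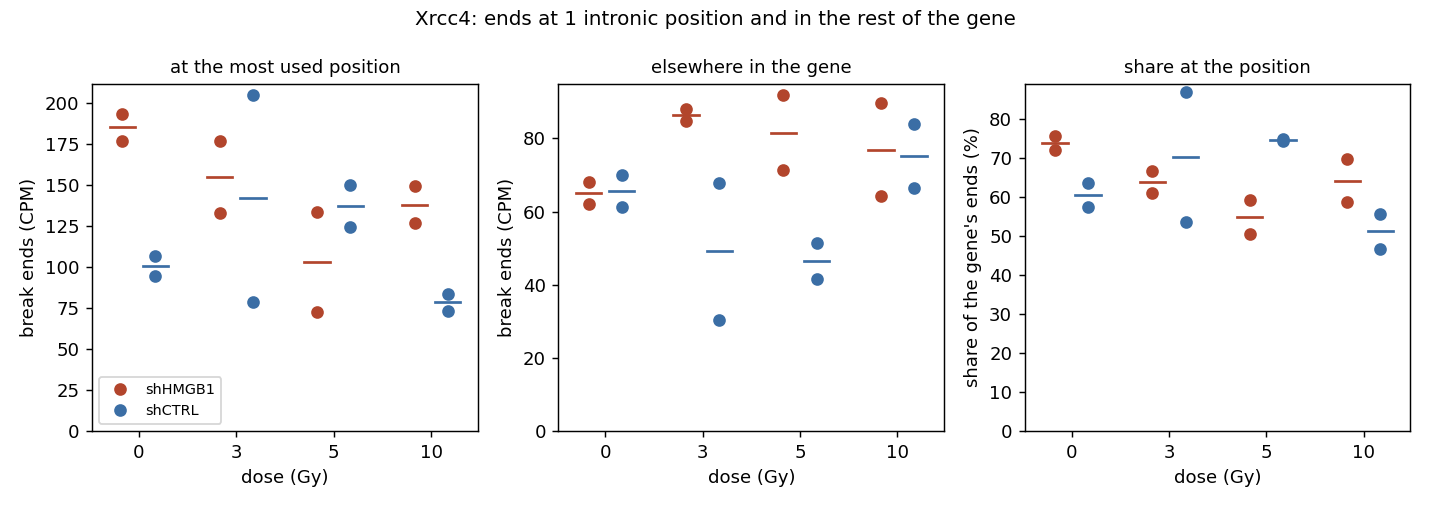
Xrcc4 ends at position 90026585 (left, CPM), in the rest of the gene (middle, CPM) and the share at that position (right, %), by dose (Gy), with one point per library, bars at the mean of 2 and shHMGB1 left of shCTRL. The position holds 46.6 to 87.1% of the ends in every library, and at 0 and 10 Gy both shHMGB1 libraries lie above both of shCTRL in the left panel.

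Other members had positions that came back in several libraries, at far lower counts. In Xrcc6, position 82006005, 18.2 kb from the GENCODE start and in an intron of both Xrcc6 and Desi1, held 44 ends in 14 libraries, 29 from shHMGB1 and 15 from shCTRL. It lies before the RefSeq promoter window, which starts at 82016119, and so within Xrcc6 only by the GENCODE body. At this base shHMGB1 averaged 4.23 ± 2.66 CPM and shCTRL 3.68 ± 2.69 CPM (SD, n = 8 each), with an exact permutation p of 0.793. In Atm, intronic position 53488298 held 17 ends in 10 libraries, 14 ends from 7 shHMGB1 and 3 ends from 3 shCTRL libraries. These are raw ends, depth differed between the lines, and the split was not tested. Parp1 had 8 ends at intronic position 180577580 in 6 libraries, 4 ends from each line. In Prkdc the most shared base was hit by 6 ends in 5 libraries, and in Xrcc5, Nhej1 and Dclre1c by ends in 4, 3 and 2 libraries. No base of Lig4 was hit in more than 1 library.

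Atm encodes the kinase that starts the signalling response, Trp53bp1 the adaptor 53BP1, and Parp1 the sensor that makes poly(ADP-ribose). Atm spans 97.6 kb of chromosome 9 (53439149 to 53536740) and held 380 ends. At 0, 3, 5 and 10 Gy it had 46.3 and 42.0, 22.6 and 24.0, 38.7 and 33.1, and 28.7 and 66.6 CPM in shHMGB1, and 37.1 and 48.5, 14.0 and 38.0, 20.8 and 41.9, and 15.1 and 33.1 CPM in shCTRL. The highest value was shHMGB1 10 Gy replicate 2, and 8 of 12 irradiated libraries lay below the lowest unirradiated one. Trp53bp1 spans 78.1 kb of chromosome 2 (121193281 to 121271407), overlaps Tubgcp4 in part, and held 529 ends. At the same doses it had 49.2 and 71.5, 39.6 and 24.0, 38.7 and 43.3, and 49.5 and 42.4 CPM in shHMGB1, and 51.5 and 68.9, 48.5 and 22.8, 60.3 and 47.6, and 31.5 and 52.0 CPM in shCTRL. Here 9 of 12 irradiated libraries lay below the lowest unirradiated one. The same count was 6 in Xrcc6 and Dclre1c, 5 in Xrcc5, 4 in Xrcc4, 2 in Nhej1 and 0 in Lig4, Prkdc and Parp1. In every member the irradiated and unirradiated libraries overlapped, and a share over all genes is not given here. Parp1 spans 32.3 kb of chromosome 1 (180568924 to 180601254) and held 207 ends, at 8.86 to 21.8 CPM in shHMGB1 and 6.19 to 28.0 CPM in shCTRL libraries.

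The comparison of shHMGB1 with shCTRL asked whether the lines differed in the share of break ends that fell in these genes. Each hairpin had 1 line, so loss of HMGB1 cannot be told apart from other differences between the lines. None of the 9 members tested passed at an adjusted p under 0.05 (edgeR's quasi-likelihood test with Benjamini-Hochberg adjustment over 12584 genes), against a background of 0.207% of all genes tested, 26 genes, of which 6 (0.0477%) were higher and 20 (0.159%) lower in shHMGB1. At an unadjusted edgeR p under 0.05 stood 1 of 9 members and 1215 of 12584 genes, and DESeq2 called 29 genes. That member was Xrcc4, with a log2 change of 0.44 ± 0.14 (SE) and an unadjusted edgeR p of 0.00323, adjusted 0.261. The other members ran from -0.31 in Xrcc5 to 0.43 in Atm, 4 of 9 were positive with Xrcc4 included, and the median was -0.12 against 0.04 over all genes. With the replicate block within each line Xrcc4 passed, at 0.44 ± 0.12 (edgeR adjusted p = 0.0407). That block also raised the number of all genes called, given in the last section, so the background of 0.207% does not apply to this call. With at most 3 ends counted per position and library it had 0.29 (edgeR adjusted p = 0.559), and in libraries thinned to the size of the smallest 0.36. Dclre1c, at -0.30 ± 0.36, was positive without shCTRL 3 Gy replicate 1 (1.12) or shCTRL 5 Gy replicate 1 (0.53). Those fits leave 1 library in the group, with 0 ends in Dclre1c at 3 Gy and 1 end at 5 Gy, so the sizes cannot be relied on. Trp53bp1, at -0.12 ± 0.19, was positive without shCTRL 3 Gy replicate 1 (0.18), where the library left held 3 of its ends. Without 1 library Xrcc5 had -0.43 to -0.11 and Atm 0.24 to 0.56, and with ends in another gene left out Xrcc6 had -0.49 in place of -0.20.

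Irradiated libraries of both lines were compared with unirradiated ones to see whether gamma rays moved the share of breaks that fell in these genes; CPM are relative to each library's total and do not show the number of breaks per cell. None of the 9 members passed, against a background of 0.0238%, 3 genes of 12584, with 1 (0.00795%) higher and 2 (0.0159%) lower. At an unadjusted edgeR p under 0.05 stood 2 of 9 members and 902 of 12584 genes, and DESeq2 called 0 genes. Those members were Atm, at 31.4 ± 14.4 CPM in irradiated (SD, n = 12) and 43.5 ± 5.01 CPM in unirradiated libraries (n = 4), with a log2 change of -0.54 ± 0.25 (edgeR adjusted p = 0.674), and Trp53bp1, at 41.7 ± 11.2 and 60.3 ± 11.5 CPM, with -0.45 ± 0.21 (edgeR adjusted p = 0.684). The remaining 7 ran from -0.49 in Dclre1c, or -1.43 to -0.27 without 1 library, to 0.29 in Parp1, or 0.03 to 0.68 without 1 library. The Dclre1c range includes the fit that leaves shCTRL 3 Gy with 1 library of 0 ends in that gene. Summed over the 10 members, irradiated libraries had 530 ± 67.8 CPM and unirradiated ones 579 ± 94.8 CPM, while shHMGB1 had 559 ± 73.4 and shCTRL 525.8 ± 77.9 CPM (SD, n = 8 each). Within shCTRL, replicate 2 exceeded replicate 1 at every dose, from 571 against 510 CPM at 5 Gy to 647 against 433 CPM at 3 Gy. In shHMGB1 replicate 2 was the higher at 0 and 10 Gy only. The SDs include this difference between replicates, and the main fit had no replicate block. With dose as a number, per 10 Gy, Atm had -0.11 and Dclre1c 0.23, and with each position counted once Xrcc4 had 0.23 in place of -0.05. With ends that also lie in another gene left out, Xrcc6 had 0.59 in place of -0.19.

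The response to irradiation was then compared between the lines, shHMGB1 minus shCTRL. None of the 9 members passed, against a background of 0%, none of 12584 genes by edgeR or DESeq2, with 655 genes at an unadjusted p under 0.05. Members ran from -0.82 in Parp1 and -0.81 in Xrcc6 to 0.53 in Atm, and the lowest adjusted p was 0.971, in Xrcc6. Without 1 library, Parp1 had -1.60 to -0.30, Xrcc6 -1.08 to -0.47 and Atm 0.27 to 0.69. With 4 unirradiated libraries the intervals were wide: that of Xrcc6 ran from -1.69 to 0.07 and that of Parp1 from -2.25 to 0.61.

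**Figure D3:**
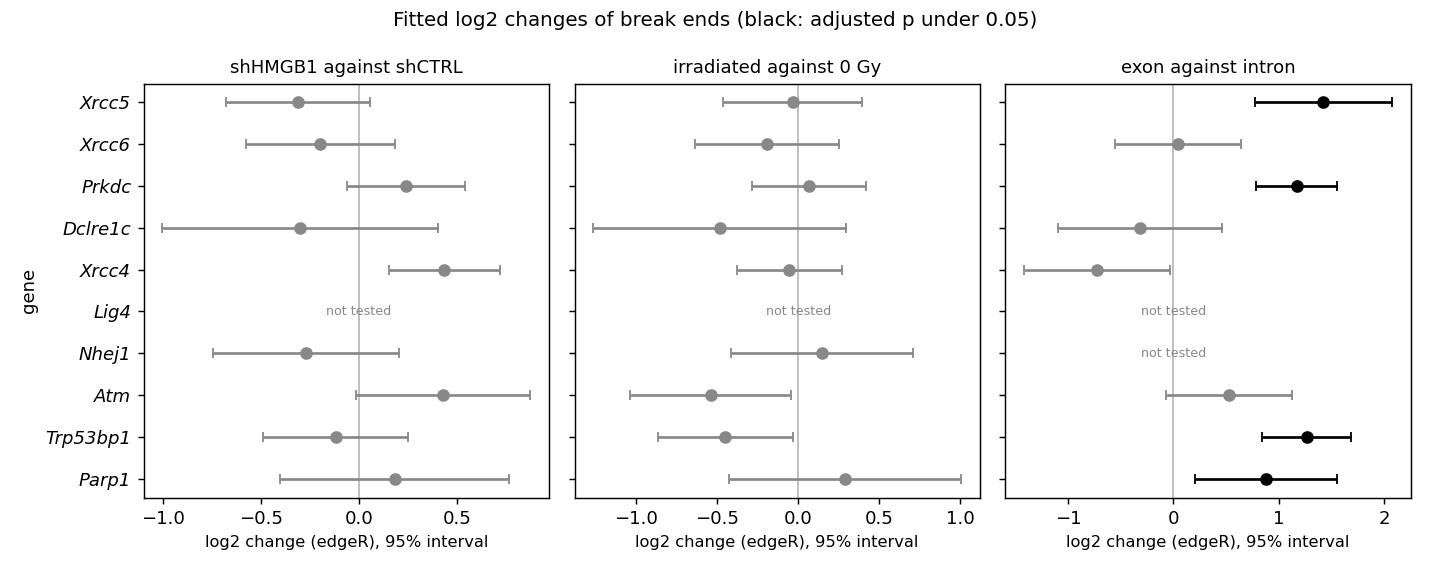
Log2 changes (horizontal axis) of the 10 genes for shHMGB1 against shCTRL, irradiated against 0 Gy, and exons against introns, with 95% intervals, black where the adjusted p is under 0.05. No interval is black in the left and middle panels, and 4 are in the right one, between 0.88 and 1.42.

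Exons of the members held more ends per kb than their introns in several genes. The exon to intron comparison within each library, with length in the model, could be made for 8 members. Xrcc5, Trp53bp1, Prkdc and Parp1 were higher in exons and none was lower, 4 of 8, against a background of 39.9% called among 9888 genes, 37.5% higher and 2.34% lower, so their share was near that of all genes. The median log2 difference was 0.70 in the members and 0.62 over all genes.

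Trp53bp1 had 1.15 ± 0.433 CPM per kb in exons and 0.470 ± 0.191 in introns (SD, n = 16), with exons higher in 15 of 16 libraries and a log2 difference of 1.27 ± 0.22 (edgeR adjusted p = 4.7e-08). Prkdc had 1.09 ± 0.586 CPM per kb in exons and 0.499 ± 0.119 in introns, higher in 12 of 16 libraries, with 1.17 ± 0.20 (edgeR adjusted p = 2.1e-08). Xrcc5 had 1.71 ± 2.09 and 0.516 ± 0.148 CPM per kb, again higher in exons in 12 of 16, with 1.42 ± 0.33 (edgeR adjusted p = 9.7e-05). Its exon mean holds a value of 8.93 from the smallest library, which rests on 3 ends. Parp1 had 0.875 ± 0.692 and 0.470 ± 0.166 CPM per kb, higher in exons in 11 of 16 libraries, with 0.88 ± 0.34 (edgeR adjusted p = 0.0285); it no longer passed without 1 of 6 libraries (edgeR adjusted p between 0.0605 and 0.105), namely shHMGB1 0 Gy replicate 2, 3 Gy replicate 1 and 5 Gy replicate 2, and shCTRL 3, 5 and 10 Gy replicate 1.

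The other members did not pass. Atm stood at 0.53 ± 0.30 (edgeR adjusted p = 0.165), and passed with each position counted once, at 0.67 (edgeR adjusted p = 0.0337). Xrcc6 stood at 0.05 ± 0.30, and Dclre1c at -0.32 ± 0.40, or 0.44 with ends in Suv39h2 left out. Xrcc4 stood at -0.72 ± 0.35 (edgeR adjusted p = 0.0915), and its direction rested on the single intronic base: with each position counted once it was 0.74, and with at most 3 ends per position 0.70, neither of which was lower in exons. Without shCTRL 5 Gy replicate 1 or 2 it passed as lower in exons, at -0.95 (0.0356) and -1.02 (0.0253). Its exons held 18 ends in all. Lig4 and Nhej1, with 22 and 8 exonic ends, were not tested. The exon to intron difference did not pass between shHMGB1 and shCTRL or between irradiated and unirradiated libraries in any of the 8 members, nor in any of 9888 genes (backgrounds of 0% each, with 411 and 431 genes at an unadjusted edgeR p under 0.05).

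**Figure D4:**
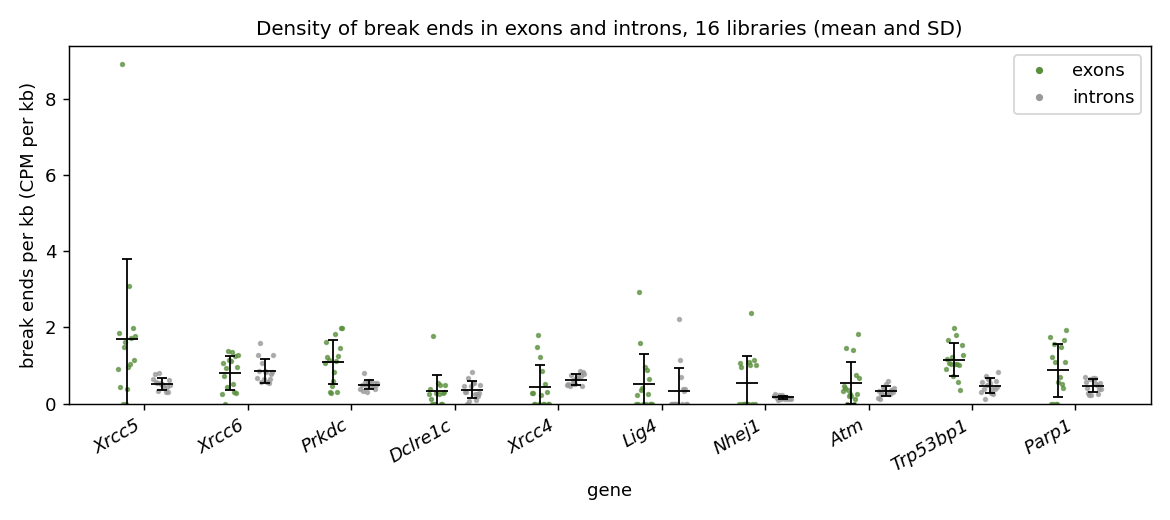
Break ends per kb (CPM per kb, vertical axis) in exons (green) and introns (grey) of each gene, one point per library, with the mean and SD over 16 libraries. Exon means exceed intron means by more than 2 times in Xrcc5, Prkdc, Trp53bp1 and Nhej1, the last on 8 exonic ends. The single exon point of 8.93 in Xrcc5 is the smallest library.

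Break ends also gathered at exon edges, mostly at the edge with the lower coordinate. In the 4 bases that end with an exon's lowest coordinate, 1 exonic and 3 outside that exon, leaving out the outer ends of the gene, the members held 114 ends, and in the mirror 4 bases at the highest coordinate 6 ends. In 8 members the low side held more ends, on either strand. On the minus strand, where the lowest coordinate is the exon's 3′ end, Trp53bp1 had 46 ends at low and 0 at high edges, and Atm 12 and 1. On the plus strand, where it is the 5′ end, Prkdc had 31 and 1, Parp1 14 and 0, and Xrcc5 5 and 1. Xrcc4 and Nhej1 had 0 at both.

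The edge share was highest in Trp53bp1. Its low edges held 8.70% of its ends, in 13 libraries, a density of 20.6 CPM per kb against 1.14 over all its exons. Of these ends 29 came from shHMGB1 and 17 from shCTRL, not scaled for depth. As large a share was found in 575 of 12584 genes, 4.57%, and the median of protein-coding genes was 0.694%. The base hit most often was the last of exon 20, position 121208355, the capital in the exon sequence above, with 12 ends in 7 libraries, 5 from shHMGB1 and 7 from shCTRL. In 10638 protein-coding genes, 6210 had more ends at low than at high edges and 785 the reverse, so the excess was also present across the genome. Plus-strand genes held 42600 ends at low and 6568 at high edges, and minus-strand genes 111392 and 67009. The low side led on both strands, by a smaller factor in minus-strand genes. The cause was not tested. Leaving out every end within 3 bases of an exon edge kept 4 members past the exon to intron test, with Trp53bp1 at 1.26, Prkdc at 1.17, Xrcc5 at 1.39 and Parp1 at 0.95.

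**Figure D5:**
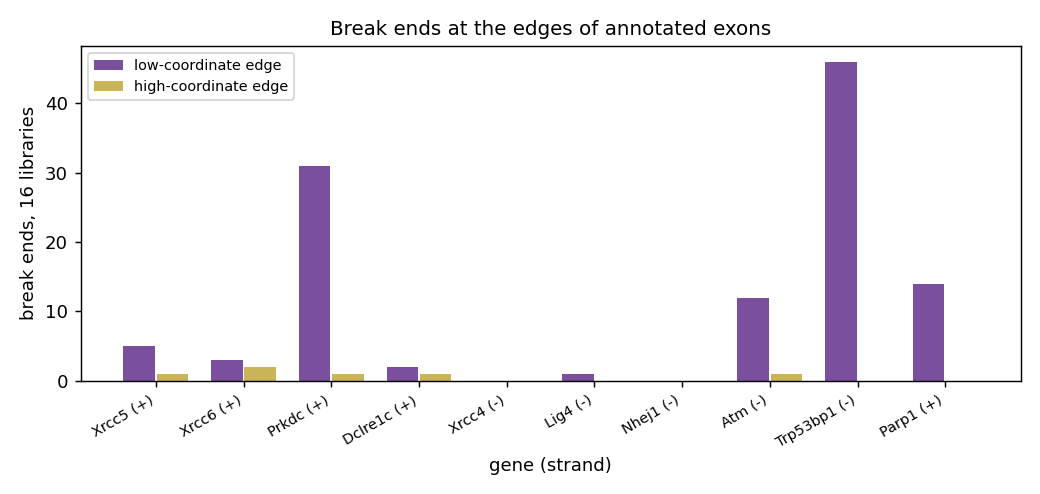
Break ends of 16 libraries (vertical axis) at the low-coordinate (purple) and high-coordinate (yellow) edges of annotated exons in each gene, with its strand. Trp53bp1 has 46 and 0, Prkdc 31 and 1 and Parp1 14 and 0.

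Of 64 other genes of double-strand break repair and signalling, 44 were tested, and none passed between shHMGB1 and shCTRL, between irradiated and unirradiated libraries, or in the difference between these. In that order 2, 0 and 1 of the 44 stood at an unadjusted edgeR p under 0.05, against 1215, 902 and 655 of 12584 genes. By role, 13 of 18 other end-joining genes, 16 of 22 other signalling genes and 15 of 24 genes of resection and recombination were tested. Their median log2 change in shHMGB1 was -0.05 for end joining, 0.10 for signalling and 0.03 for recombination. In the exon to intron comparison 14 of 42 were higher in exons and 0 lower, close to the 37.5% of all genes. Among them were Mdc1, the scaffold that binds phosphorylated H2AX, at 1.81 (edgeR adjusted p = 5.2e-07), the gap-filling polymerase Polm at 1.23 (1.4e-06), Lig3, the ligase of alternative end joining, at 1.45 (5.9e-05), Rad50 and Nbn of the end-binding MRN complex at 1.59 (0.000157) and 1.57 (0.000802), and Rif1, the effector of 53BP1, at 1.20 (0.000193).

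Some of those genes exceeded the members in density. Among those with many ends were the helicase gene Wrn with 498 and Shld2, a shieldin subunit, with 478. In Shld2, as in Xrcc4, a single position held a large share, 52.5% of the ends. Per kb, with all libraries pooled, Polm was the densest at 3.02 CPM, ahead of Parp3 at 2.37 and Ercc1 at 2.08. All were above the pooled 0.816 of Xrcc6, whose body is mostly shared with Desi1.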

How the data were processed

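BLISS libraries of AB22 cells were analysed from 1 deposited list of break ends per library. Per the labels' protocols, ends were blunted and ligated to adapters in fixed cells, and the DNA was sonicated, transcribed in vitro and made into libraries. The submitters' processing notes name Trimmomatic 0.32, UMI-tools, BWA 0.7.5-r404, SAMtools, bedtools and mm10, without order or settings. The deposited values are raw counts of ends with each end's position, not normalised by the authors and without strand. Expression and accessibility assays were not analysed here.

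Each end was counted (1-based, mm10) in the bodies of 21910 protein-coding and 10142 lncRNA genes of GENCODE M21, with exons as the union over transcripts, and in every gene it overlapped. CPM are of main-chromosome ends. Genes were compared by edgeR's quasi-likelihood test (version 4.0.16) on 8 group means, with TMM factors on the ends in genes and filterByExpr; the SE is the log2 change over the root of F. Exons and introns were compared over 32 columns with each library as a block and length as an offset, for genes with at least 200 bp of exon, 1000 bp of intron and 10 ends in each. DESeq2 1.42.0 was an alternative. Single positions were compared by exact permutation within doses (1296 arrangements, smallest p 0.00154) or within lines (784, smallest p 0.00128). Scripts were tested on simulated data.

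The members and lists were chosen with earlier results of these data known. All 10 members are named; of the other repair genes, the rule takes up to 12 past a test by smallest p, the 3 with the most ends and the 3 densest, and values are given for the first 6 past the exon to intron test. One gene the rule names is not reported here. Exon edges, the cap of 3 ends per position, TMM sizes for positions and leaving out libraries for positions were added after seeing the data.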

Additional observations from a re-analysis of the deposited data

Results flagged for a closer look

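In 28 sets of 8 libraries (10 genes, and the most used position and the rest of Xrcc4 and Xrcc6, in each line), 3 had 1 library far from the others; chance gives about 1 set in 20. Xrcc4 was lowest in shHMGB1 5 Gy replicate 2, at 143.777 CPM (113 ends), where the other 7 shHMGB1 libraries had 214 to 265 CPM. Xrcc6 was highest in shHMGB1 0 Gy replicate 2, at 66.9355 CPM (59 ends), with the others between 26.6 and 44.5 CPM. Parp1 was lowest in shHMGB1 5 Gy replicate 1, at 8.85534 CPM (8 ends), with the others between 15.98 and 21.8 CPM.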

How the results depend on the processing

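Between shHMGB1 and shCTRL, 0 members passed in the alternatives run except with the replicate block within each line. There Xrcc4 passed at 0.44 (edgeR adjusted p = 0.0407), 1 of 9 members, with 126 of 12584 genes. The replicate block over both lines gave 32 genes. Same-numbered libraries correlated in their deviations at 0.0792 to 0.172 within shHMGB1, 0.111 to 0.201 within shCTRL and -0.192 to 0.102 between the lines (4002 genes), so every pair passed 0.1 within shCTRL, not every pair within shHMGB1, and the numbers were not taken to pair libraries across the lines. The 26 genes became 70 with each position counted once, 43 with at most 3 ends per position, 16 with introns alone, 0 with exons alone and 4 in thinned libraries, where fewer genes were tested. Of them 6 were higher, against 10 of 25 with no filter and 2 of 29 with DESeq2. Leaving out 1 library gave 11 to 138: 138 without shHMGB1 3 Gy replicate 1, 46 without shCTRL 3 Gy replicate 2, 17 without shHMGB1 10 Gy replicate 2, 16 without shCTRL 0 Gy replicate 2, 13 without shCTRL 5 Gy replicate 2 and 11 without shHMGB1 0 Gy replicate 2. For irradiation, with 0 members throughout, 3 genes became 6 with no filter, 0 with DESeq2, exons alone or thinned libraries, 19 with the replicate block within each line, and 1 with dose as a number or at most 3 ends per position. Leaving out 1 library gave 1 to 12: 12 without shHMGB1 3 Gy replicate 1, 5 or 6 without shHMGB1 5 Gy replicate 1, shCTRL 0 Gy replicate 1 or 2, 5 Gy replicate 2 or 10 Gy replicate 2, and 1 without shHMGB1 5 Gy replicate 2 or 0 Gy replicate 1 or 2. The difference between lines in the response gave 0 to 1, the 1 without shCTRL 0 Gy replicate 1. In the exon to intron comparison 3 to 5 members passed without 1 library, and Parp1 missed the threshold with no filter (edgeR adjusted p = 0.0513). The causes were not tested. Of 937 member log2 values under alternatives, 892 kept their side of the threshold and, where not called, stayed within 1 SE. Depth limits Lig4, the promoters and the exons of Xrcc4 and Nhej1.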
